A study of Canis lupus familiaris with 34 samples.

Results

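The plasminogen activators and their inhibitors were followed here as 7 genes in the mitral valves of 34 dogs. They were taken by symbol, as PLAT, PLAU, PLAUR, SERPINE2, SERPINB2, ANXA2 and S100A10, from a table of 23768 features, with the canine RefSeq feature used where a symbol was listed with both a canine and a human one. All 7 were found, and all 7 passed the filter of at least 100 counts summed over the dogs, as did 19568 features in all. Each sample was the poly-A RNA of a mitral valve from 1 privately owned Cavalier King Charles Spaniel, a breed with a high incidence of myxomatous mitral valve disease (MMVD), collected at elective euthanasia. The 10y-MMVD-CHF group held 15 dogs (6 females, 9 males) whose MMVD had led to congestive heart failure (CHF). The 10y-noCHF group held 19 dogs (10 females, 9 males) with no MMVD or with MMVD that had not reached CHF. Dogs of both groups were about 10 years old. By the study's account, MMVD was severe in several of the 10y-noCHF dogs, so the groups differ in CHF and not simply in valve disease. Response to diuretic treatment was among the study's criteria for CHF, so such treatment and CHF cannot be told apart here. Neither age in years nor disease stage is paired with single dogs here.

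Plasmin is the protease that dissolves fibrin and cuts several proteins of the extracellular matrix. Tissue-type plasminogen activator (PLAT) and urokinase (PLAU) make it from plasminogen, PLAUR holds urokinase at the cell surface, and the annexin A2 and S100A10 complex binds plasminogen and PLAT there. Serpins such as protease nexin-1 (SERPINE2) and plasminogen activator inhibitor 2 (SERPINB2) block the activators, and the valve is a tissue whose matrix is under constant turnover.

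PLAU (chromosome 4: 25061895 to 25066649 of canFam4, + strand) and ANXA2 (30: 25587159 to 25620802, - strand) were counted on the exons of canine RefSeq genes. The other 5 were counted on alignments of human transcripts, in which introns are mostly included. These were PLAT (16: 24216016 to 24229804, +), PLAUR (1: 112193341 to 112206952, +), SERPINE2 (37: 29584642 to 29609475, -), SERPINB2 (1: 13332350 to 13344948, -) and S100A10 (17: 61645454 to 61648646, -, with a further interval on X: 120510495 to 120511029). The alignments of SERPINE2, PLAT, SERPINB2 and S100A10 covered only part of the span of the canine gene. For SERPINE2 this was 24834 bases, against a canine gene of 57480, and for PLAT 13789 against 26696. Lengths of the 2 kinds of feature are not comparable, so levels are not ranked between genes. Total counts per dog ranged from 46185256 to 82361245, with medians of 62167469 within 10y-MMVD-CHF and 59645613 within 10y-noCHF. Levels are given as CPM, the counts of a feature relative to the TMM-scaled library size.

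Neither activator differed detectably between the groups. PLAT had 70.3, 325 and 619.7 CPM as lowest, median and highest level in the 10y-MMVD-CHF dogs, and 166, 318 and 719 CPM in the 10y-noCHF dogs. The groups overlapped widely, although the 3 lowest dogs, CAV1047, CAV1876 and CAV373, were all 10y-MMVD-CHF. The mean was 316 ± 157 CPM (SD, n = 15) against 356 ± 146 CPM (SD, n = 19), a log2 fold change of -0.18 with a standard error of 0.233 (edgeR, FDR = 0.954). The 95% confidence interval ran from -0.65 to 0.30 on the log2 scale. The estimate moved with single dogs, to -0.07 without CAV488, -0.08 without CAV1047, -0.10 without CAV1876 and -0.12 without CAV1732, and to -0.27 without CAV1872 or without CAV648.

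PLAU varied little between dogs. Its lowest, median and highest levels were 13.2, 15.2 and 19.2 CPM in 10y-MMVD-CHF and 10.7, 14.5 and 21.6 CPM in 10y-noCHF. Both the highest and the lowest dog were 10y-noCHF, so that the range of the CHF dogs lay within that of the others. The log2 fold change was 0.08 with an interval from -0.09 to 0.25 (edgeR, FDR = 0.932). It was 0.12 without CAV488, and 0.03 with the mean of the endothelial markers as a covariate.

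PLAUR, the urokinase receptor, had 6.20, 11.3 and 21.7 CPM in 10y-MMVD-CHF and 6.49, 11.5 and 19.9 CPM in 10y-noCHF. The CHF dogs held both ends of the range, with CAV1047 lowest and CAV1097 highest. The log2 fold change was 0.08 with an interval from -0.25 to 0.41 (edgeR, FDR = 0.968). With single dogs left out it ranged from 0.00096, without CAV1872, to 0.15, without CAV743.

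Both inhibitors had lower medians in CHF, but their spread between dogs was the largest of the 7 genes and neither difference passed the test. SERPINE2 had 11.8, 43.9 and 150.3 CPM in 10y-MMVD-CHF and 8.29, 63.6 and 282.9 CPM in 10y-noCHF. The highest dog was CAV447 (10y-noCHF), followed by CAV1519 (10y-MMVD-CHF), and the lowest was CAV488 (10y-noCHF). In 13 of the 15 CHF dogs the level was below the 10y-noCHF median, while no CHF dog was below the whole 10y-noCHF range.

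The log2 fold change of SERPINE2 was -0.46 with a standard error of 0.377 and an interval from -1.23 to 0.30 (edgeR, FDR = 0.899). It rested in part on single dogs, being -0.23 without CAV447 and -0.71 without CAV1519. Within groups, the SD of its log2 CPM was 1.14, larger than that of 90.2% of the features tested.

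SERPINB2 was the most variable of the genes and the least counted, with 2 to 1138 counts per dog. Its levels were 0.0303, 2.42 and 22.6 CPM in 10y-MMVD-CHF and 0.275, 2.99 and 19.7 CPM in 10y-noCHF. The CHF group held both the lowest dog, CAV1196, and the highest, CAV1047. The SD of its log2 CPM within groups was 1.98, above that of 98.6% of the features tested.

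The log2 fold change of SERPINB2 was -0.37 with an interval from -1.59 to 0.85 (edgeR, FDR = 0.961). Without CAV1047 it was -1.06, and without CAV743, the highest 10y-noCHF dog, it was -0.04. It was -0.24 without CAV1114 and -0.55 without CAV373. An interval of this width includes differences of more than 1 log2 unit, which could not be detected at this spread.

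The plasminogen receptor subunits gave the smallest p-values of the 7 genes. S100A10, the partner of annexin A2, had 67.5, 105.6 and 118.7 CPM in 10y-MMVD-CHF and 86.8, 119.9 and 148.7 CPM in 10y-noCHF. The level was under the 10y-noCHF median in all 15 CHF dogs, a pattern found in 39 of the 19568 features tested (0.199%), although only 2 of them lay below the whole 10y-noCHF range. The mean was 100.2 ± 13.9 CPM against 118 ± 17.5 CPM.

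For S100A10 the log2 fold change was -0.25, or 0.843-fold, with a standard error of 0.0725 and an interval from -0.39 to -0.10. The unadjusted p was 0.00169 in the edgeR fit across all features and the FDR was 0.385, so the difference did not pass the threshold of 0.1. DESeq2 gave an FDR of 0.162. When single dogs were left out, the log2 fold change stayed between -0.28 and -0.21 and the edgeR FDR did not go below 0.155.

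ANXA2, which holds S100A10 at the membrane, had 306.9, 524.5 and 640.2 CPM in 10y-MMVD-CHF and 489, 596 and 773 CPM in 10y-noCHF. In 13 of the 15 CHF dogs it was below the 10y-noCHF median, and 3 of them were below the whole 10y-noCHF range. The means were 520.5 ± 78.2 and 594 ± 77.3 CPM.

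For ANXA2 the log2 fold change was -0.20 with a standard error of 0.0736 and an interval from -0.35 to -0.05 (edgeR, unadjusted p = 0.00922, FDR = 0.592). DESeq2 gave an FDR of 0.353. Its feature overlaps those of 3 ANXA2 pseudogene symbols on the same strand, and a read is assigned to each feature it overlaps, so their reads cannot be told apart.

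CAV1047 was the lowest of the 34 dogs for S100A10, ANXA2, PLAT and PLAUR, and the highest for SERPINB2. Without this dog the log2 fold changes of S100A10 and ANXA2 were -0.21 and -0.16, and that of PLAUR was 0.145. CAV749, a 10y-noCHF male, was the highest dog for both S100A10 and ANXA2.

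**Figure D1:**
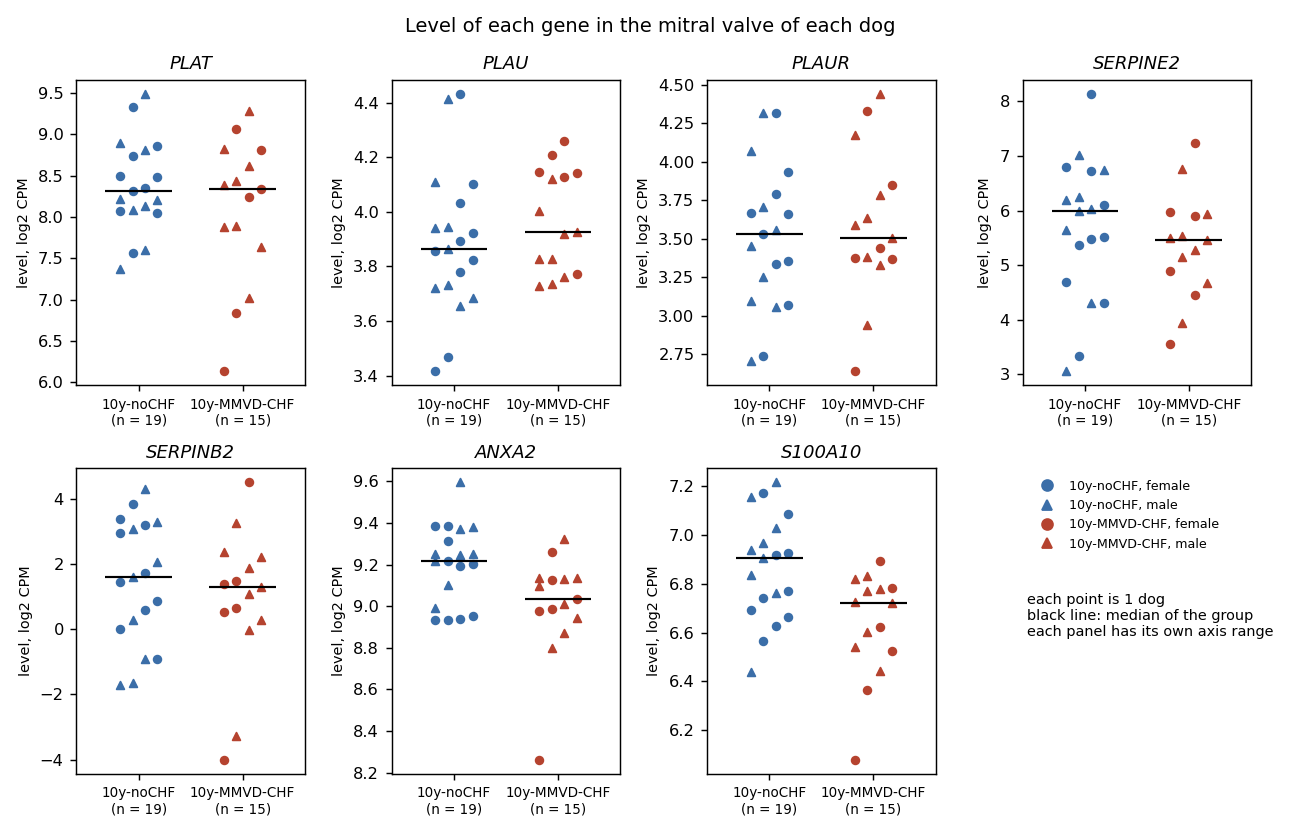
Level of each of the 7 genes (y axis, log2 CPM, with a range of its own in each panel) in the 19 10y-noCHF and 15 10y-MMVD-CHF dogs. Each point is 1 dog, circles are females, triangles are males and black lines are group medians. The groups overlap for every gene, and for S100A10 all 15 10y-MMVD-CHF dogs are under the black line of 10y-noCHF.

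With edgeR, 0 of the 7 genes had an FDR below 0.1, against 0.118% of the features tested. DESeq2 also called 0 of them, against 0.327%. At an unadjusted p below 0.05 the count was 2 of 7, ANXA2 and S100A10, both lower in CHF. Of the features tested 6.31% had such a p, with 3.51% lower and 2.8% higher in CHF. In all, 5 of the 7 log2 fold changes were below 0, and 47.4% of the features tested had one below 0. The median over the 7 genes was -0.20, against 0.0076 over all features tested.

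The other genes of the plasminogen system were taken from a list of 25 genes of the zymogen, further inhibitors, receptors, cofactors and fibrin, of which 20 passed the filter. PLG, which encodes plasminogen itself, did not, nor did SERPINA5, HRG, FGA and FGB. None of the 20 had an FDR below 0.1 with edgeR or DESeq2, 10 had a log2 fold change below 0 and 10 above it, and the median was -0.02. At an unadjusted p below 0.05 in edgeR there were 2 of 20, CLEC3B, lower in CHF, and SORL1, higher. Of all features tested 6.31% had such a p.

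CLEC3B encodes tetranectin, which binds plasminogen, and its mean was 126 CPM in 10y-MMVD-CHF against 172 CPM in 10y-noCHF dogs. For CLEC3B the log2 fold change was -0.45 with a standard error of 0.131 (edgeR, FDR = 0.375; DESeq2, FDR = 0.139). SORL1, a receptor of the LDL receptor family, had means of 15.3 and 10.7 CPM and its log2 fold change was 0.56, with a standard error of 0.240 (edgeR, FDR = 0.733). The 4 with the next smallest p were KLKB1 (-0.34), PLGRKT (-0.13), VLDLR (-0.17) and VTN (0.40 on the log2 scale), and the lowest edgeR FDR among these 4 was 0.847.

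**Figure D2:**
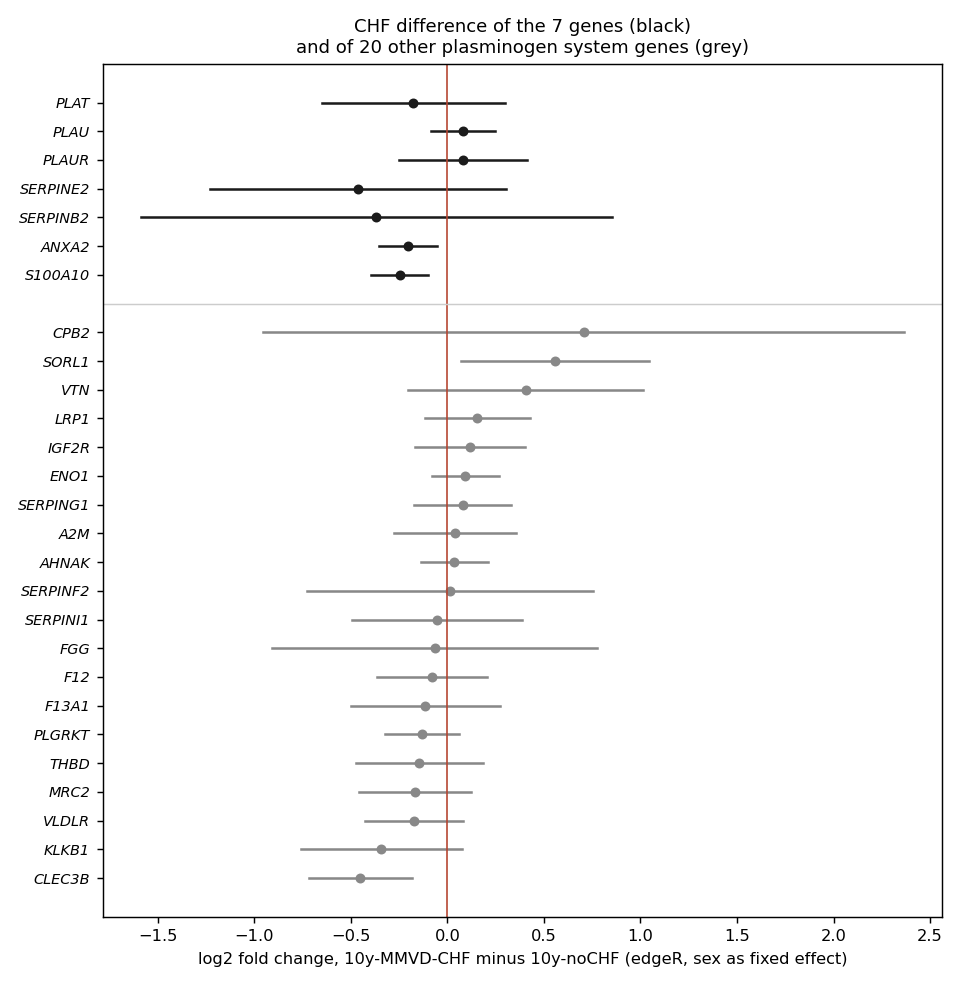
Log2 fold change between 10y-MMVD-CHF and 10y-noCHF dogs (x axis, values below 0 are lower in CHF) of the 7 genes, in black, and of 20 other plasminogen system genes, in grey. Points are edgeR estimates and lines are 95% confidence intervals, and among the 7 genes the intervals of ANXA2 and S100A10 do not include 0.

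The CHF difference of the 7 genes was not shown to depend on sex. The edgeR interaction of CHF and sex called 0 of the 7, as it did 0 (0%) of all features tested, and none of the 7 had an unadjusted p below 0.05, where 6.02% of the features did. The smallest p was that of PLAU, whose log2 fold change was 0.22 in females and -0.04 in males (edgeR interaction, p = 0.122, FDR = 0.861). Its median in CHF was 17.7 CPM in the 6 females and 14.2 CPM in the 9 males, and in 10y-noCHF it was 14.7 and 14.5 CPM.

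The log2 fold change of S100A10 was -0.26 in females and -0.23 in males, and that of ANXA2 was -0.18 and -0.22. Between males and females, 0 of the 7 genes were called by edgeR, against 0.143% of the features tested, and none had an unadjusted p below 0.05, against 2.98%.

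The genes varied together between dogs in part. For each of the 21 pairs the log2 CPM were correlated over the 34 dogs after the means of the 4 groups of CHF and sex had been removed, with two-sided permutation tests and Benjamini-Hochberg adjustment over the 21 relations. Of these, 6 passed an adjusted p of 0.05, and 5 of the 6 also passed by Spearman's rho. Because all 34 dogs enter each relation, the 21 are not independent of each other.

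PLAT varied together with PLAUR, PLAU and ANXA2. PLAT and PLAUR had r = 0.721 and rho = 0.740 (permutation p = 1e-05 for both, the smallest that 100000 resamples can give, adjusted 0.000105 and 0.00021), and r = 0.657 when the 2 dogs farthest from the PLAT median were left out. The relation was present in both groups, with r = 0.662 within 10y-MMVD-CHF and 0.827 within 10y-noCHF. PLAT and PLAU had r = 0.568 and rho = 0.556 (permutation p = 0.00045 and 0.00082, adjusted 0.00236 and 0.00574), and r = 0.444 without those 2 dogs.

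PLAT also followed ANXA2, with r = 0.614 and rho = 0.542 (permutation p = 0.00017 and 0.00126, adjusted 0.00119 and 0.00661) and r = 0.482 without the 2 farthest dogs. PLAUR followed ANXA2 with r = 0.507 and rho = 0.518 (permutation p = 0.00205 and 0.00187, adjusted 0.00861 and 0.00785), and r = 0.456 without the 2 dogs farthest from the PLAUR median. Within 10y-MMVD-CHF and 10y-noCHF, r was 0.589 and 0.659 for PLAT with ANXA2, and 0.475 and 0.553 for PLAUR with ANXA2.

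The subunits of the annexin A2 and S100A10 complex had the highest r of the 21 pairs. It was 0.763, with rho = 0.717 (permutation p = 1e-05 and 3e-05, adjusted 0.000105 and 0.000315), and it was 0.704 when the 2 dogs farthest from the ANXA2 median were left out. In 10y-MMVD-CHF r was 0.781 and in 10y-noCHF 0.767.

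The inhibitors passed the threshold in few of their relations. SERPINE2 passed the threshold with none of the other 6 genes, and its r ranged from -0.31 with PLAU to 0.07 with PLAUR. SERPINB2 passed with ANXA2 only, at r = -0.43 and rho = -0.36 (permutation p = 0.0115 and 0.0359, adjusted 0.0404 and 0.108). This relation was weaker without the 2 dogs farthest from the ANXA2 median, where r was -0.26 (permutation p = 0.147). Within 10y-MMVD-CHF r was -0.34 and within 10y-noCHF -0.54.

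**Figure D3:**
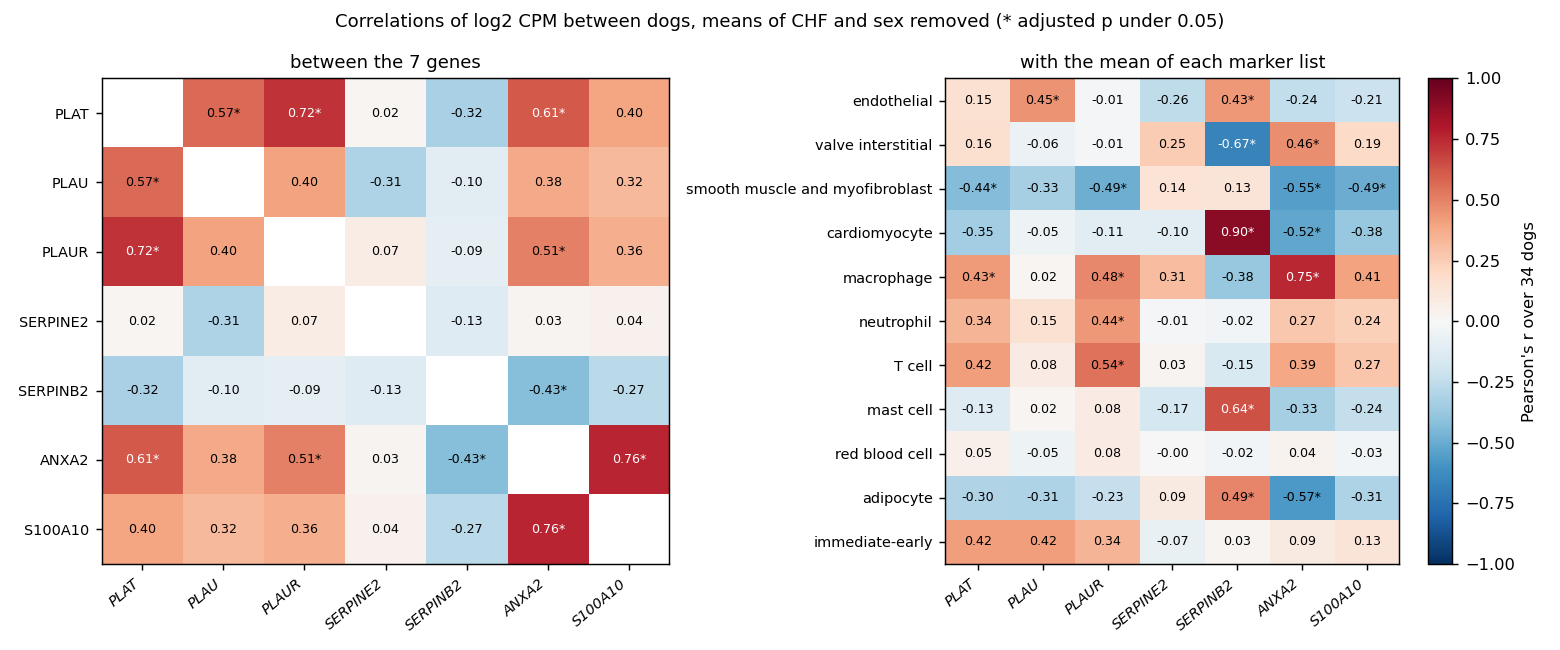
Pearson's r between log2 CPM over 34 dogs, with the means of the 4 groups of CHF and sex removed, for the 7 genes with each other (left) and with the mean of each of 11 marker lists (right). Red is positive and blue negative, a star marks an adjusted p under 0.05, and SERPINE2 has no star in either map.

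A valve sample holds several cell types, and in bulk RNA fewer cells of a type and less RNA per cell cannot be told apart. The 10 valve interstitial markers, such as COL1A1, DCN and VIM, had a summed level of 14198 to 38707 CPM in the 34 dogs. These levels describe the samples and do not test whether the tissue was valve. Each of the 7 genes was set against the mean log2 CPM of 11 marker lists, which gave 77 relations. Of these, 18 passed an adjusted p of 0.05 (11 positive, 7 negative), and 6 of the 18 also passed by Spearman's rho. Of the 18, SERPINB2 and ANXA2 had 5 each, PLAUR 4, PLAT 2, PLAU 1 (endothelial) and S100A10 1 (smooth muscle and myofibroblast). PLAT, PLAUR and ANXA2 all passed with the macrophage markers (r = 0.429, 0.477 and 0.752). They also passed with the smooth muscle and myofibroblast markers (r = -0.44, -0.49 and -0.55). By Spearman's rho, ANXA2 alone of these genes passed with the 2 lists. The part of these lists in the relations between the genes was not tested. PLAT did not pass with the endothelial markers (r = 0.151, rho = 0.0399, permutation p = 0.394 and 0.823, adjusted 0.624 and 0.946, r = -9.6e-05 without the 2 farthest dogs).

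The SERPINB2 feature followed the cardiomyocyte markers closely. It is a span that includes introns, so it cannot be told from the counts whether its reads come from SERPINB2 exons. Over the 15 markers, among them MYH7, TNNT2 and ACTC1, r was 0.904 and rho 0.957 (permutation p = 1e-05 for both, the smallest possible, adjusted 0.000257 and 0.000385). It was 0.905 without the 2 farthest dogs, 0.888 within 10y-MMVD-CHF and 0.931 within 10y-noCHF. All 15 markers passed the filter, and their summed level ran from 76.5 to 50284 CPM in 10y-MMVD-CHF and from 55.7 to 24303 CPM in 10y-noCHF. CAV1047, the dog highest for SERPINB2, was also highest for the mean of this list (10.64 log2 CPM). Its valve interstitial mean was the lowest of the 10y-MMVD-CHF dogs (10.17 log2 CPM). The part of muscle content in the low PLAT, PLAUR, ANXA2 and S100A10 levels of this dog was not tested.

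With the cardiomyocyte mean as a covariate, the CHF difference of SERPINB2 was -0.60 with a standard error of 0.280 (edgeR, unadjusted p = 0.0392, FDR = 0.630), against -0.37 without it. SERPINB2 was also higher where mast cell markers were higher (r = 0.635, rho = 0.733, permutation p = 4e-05 and 2e-05, adjusted 0.00077 and 0.000385, r = 0.669 without the 2 farthest dogs). Its relation to the valve interstitial markers was negative (r = -0.67, rho = -0.72, permutation p = 1e-05 for both, adjusted 0.000257 and 0.000385, r = -0.62 without the 2 farthest dogs). The 4 mast cell markers were low, with a summed level of 0.494 to 22.98 CPM in the 34 dogs. Whether the mast cell and valve interstitial relations are separate from the cardiomyocyte one is not shown here.

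ANXA2 followed the macrophage markers, such as CD68, CD163 and C1QA, with r = 0.752 and rho = 0.711 (permutation p = 1e-05 and 2e-05, adjusted 0.000257 and 0.000385). It was 0.687 without the 2 farthest dogs, 0.863 within 10y-MMVD-CHF and 0.717 within 10y-noCHF. All 10 macrophage markers passed the filter, with a summed level of 684 to 1878 CPM in 10y-MMVD-CHF and 552 to 2019.5 CPM in 10y-noCHF. Their median log2 fold change between the groups was 0.20. In edgeR, 1 of the 10 had an unadjusted p below 0.05, higher in CHF, and 0 had an FDR below 0.1.

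With the macrophage mean added to the edgeR fit, an alternative chosen after the data were seen, the log2 fold change of ANXA2 was -0.29 with an FDR of 0.0273, and that of S100A10 was -0.29 with an FDR of 0.117. This was the only alternative run in which any of the 7 genes was called. It called 35 of the 19568 features tested, against 23 in the fit without the macrophage mean. The part of macrophages in the difference was otherwise not tested. ANXA2 was also lower where the smooth muscle and myofibroblast markers were higher (r = -0.55, rho = -0.58, permutation p = 0.00067 and 0.00039, adjusted 0.0086 and 0.00601, r = -0.45 without the 2 farthest dogs).

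**Figure D4:**
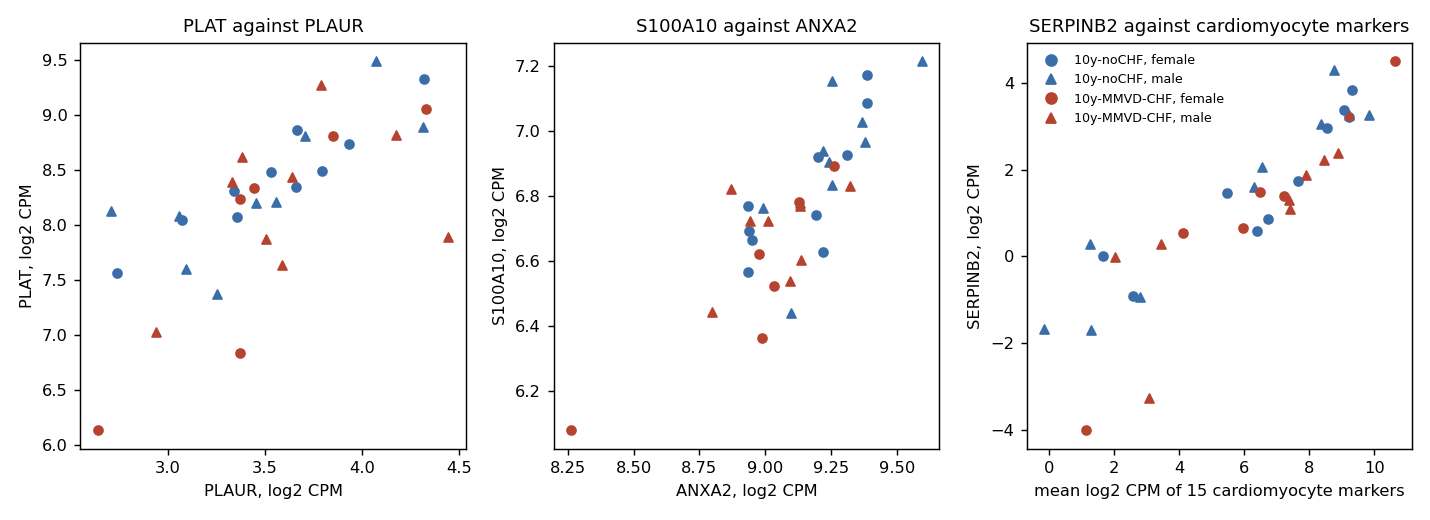
Each point is 1 dog, coloured by group and shaped by sex, on log2 CPM axes with no means removed. PLAT is higher where PLAUR is (left), S100A10 where ANXA2 is (middle) and SERPINB2 where the mean of 15 cardiomyocyte markers is (right), and the 10y-MMVD-CHF female CAV1047 is lowest in the left and middle panels and highest in the right one.

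The features most like each gene over the 34 dogs were found by Spearman's rho after the same means had been removed, as a description with no test. For PLAT the 3 nearest were the transcription factors BACH1 (rho = 0.864) and MYBL2 (0.863) and the fatty acid elongase ELOVL7 (0.861). For PLAU they were TRABD2B (0.737), the condensin subunit NCAPG2 (0.698) and the laminin chain LAMA5 (0.692). For PLAUR they were DUSP5P1 (0.848), the phosphatase DUSP5 (0.847) and ZNRF2 (0.836).

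For ANXA2 the 3 nearest were DIAPH1, a formin that acts on actin (0.821), GNG2, a G protein subunit (0.794), and SNX6, a sorting nexin (0.776). For S100A10 they were the features of the 3 ANXA2 pseudogene symbols (0.760 to 0.761), which share reads with ANXA2. For SERPINB2 they were FBXO40 (0.963), KCNJ11 (0.962) and TRIM55 (0.961), of which FBXO40 and TRIM55 are genes of striated muscle. For SERPINE2 the highest values were lower, at 0.633 for the helicase DDX56, 0.628 for the protease CTSZ and 0.620 for CLN8.

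Depth moved with some of these genes. Over the 34 dogs, with the same means removed, Pearson's r with the log2 of the total counts ranged from -0.45 for SERPINB2 to 0.53 for S100A10 (rho = -0.36 and 0.36), and its part in the results was not tested.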

How the data were processed

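The authors mapped paired reads of poly-A RNA to canFam4 (UU_Cfam_GSD_1.0) with STAR. They deposited unnormalized counts, for which featureCounts 2.0.3 was run. Per the file headers, a read counted for every feature it overlapped, without strand, and the reads of a pair were counted separately, so that 71.0% of the counts above 0 were even. Features were 2165 canine RefSeq genes and 21603 human alignments. The deposited feature lengths were not used, since most span introns, and a planned ranking of the genes per length was not run. Of 35 columns of counts, 1 belongs to no sample here and was not used.

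Counts were tested with edgeR 4.0.16 (quasi-likelihood, TMM, sex as fixed effect, sum of at least 100 counts, FDR threshold 0.1, R 4.3.3), after a run on simulated data. DESeq2 1.42.0 and limma 3.58.1 were alternatives. CPM and log2 CPM (prior count 2) were computed from the deposited counts. Standard errors were derived from edgeR's statistic and are approximate. Permutation tests used 100000 resamples. The 7 genes, the gene lists and the rules for naming were chosen with earlier results of these data known. Named were the 7 genes, the 6 other plasminogen system genes with the smallest p and the 3 features most like each gene.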

Additional observations from a re-analysis of the deposited data

How the results depend on the processing

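The 7 genes were not called, and the 20 other plasminogen system genes neither, under any alternative run, with the exception of 1 of the 7 (ANXA2) with the macrophage mean as covariate. The number of features called, 23 with edgeR, was 64 with DESeq2, 13 without the sex term, 13 with the endothelial mean as covariate, 35 with the macrophage mean, 7 with the immediate-early gene mean, 9 at an FDR of 0.05 and 8 to 28 with each of the 34 dogs left out. The macrophage and immediate-early settings, the fits within a sex and those without CAV1047 and CAV614 were chosen after seeing the data. Directions of the log2 fold changes were kept under each scaling, and reversed for PLAU in males alone (-0.038) and for PLAUR with the macrophage mean (-0.028) and in females alone (-0.0061). With all dogs kept, the PLAT value ran from -0.31 with the macrophage mean to -0.03 with the immediate-early mean, and that of PLAU was 0.14 with the latter and 0.02 on its human feature. Of the 21 pairs, 6 passed, and 3 did with no means removed and 3 in 10y-noCHF alone. Of the 77 marker relations, 18 passed, and 6 did by Spearman's rho, 8 with no means removed, 8 in 10y-noCHF alone, 2 in 10y-MMVD-CHF alone, 7 with the cardiomyocyte mean also removed and 5 without CAV1047 and CAV614. The cause of these changes was not tested, although the settings with fewer dogs have fewer samples to test. The ranking per length and its alternatives were not run. No paired analysis was possible because the dogs of the groups share no replicate numbers. Counts were low for SERPINB2 (2 to 1138 per dog) and, among the other genes, for CPB2 (0 to 31, with 13 dogs at 0) and SERPINF2 (4 to 64).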

Other observations

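Among the other plasminogen system genes, 4 of 20 had an unadjusted p below 0.05 for the interaction of CHF and sex in edgeR, where 6.02% of all features did, and none passed an FDR of 0.1 (lowest 0.815). The broad protease inhibitor A2M had a log2 fold change of 0.50 in females and -0.36 in males (interaction p = 0.00494 in edgeR). FGG, a fibrinogen chain at a mean of 1.53 and 1.64 CPM in the groups, had -1.20 in females and 0.78 in males (p = 0.00928 in edgeR). AHNAK, a large scaffold protein that binds the annexin A2 complex, had 0.24 and -0.14 (p = 0.0262 in edgeR), and LRP1, which clears complexes of activator and inhibitor, had 0.45 and -0.09 (p = 0.0464 in edgeR).

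PLAUR followed the T cell markers at r = 0.544 and rho = 0.410 (permutation p = 0.00083 and 0.0165, adjusted 0.00913 and 0.0849), and r = 0.371 without the 2 farthest dogs (permutation p = 0.037). It followed the neutrophil markers at r = 0.436 and rho = 0.279 (permutation p = 0.0093 and 0.109, adjusted 0.0475 and 0.28). This relation was weaker without the 2 farthest dogs, where r was 0.293 (permutation p = 0.103). Within 10y-MMVD-CHF r was 0.445 and within 10y-noCHF 0.434. PLAUR also passed with the macrophage markers (r = 0.477, rho = 0.468, permutation p = 0.00421 and 0.00556, adjusted 0.027 and 0.0502). Without the 2 farthest dogs this r was 0.359. With the smooth muscle and myofibroblast markers PLAUR passed negatively (r = -0.49, rho = -0.47, permutation p = 0.00346 and 0.00587, adjusted 0.0242 and 0.0502). Without the 2 farthest dogs that r was -0.44. No gene of the 7 passed the threshold with the red blood cell markers or with the immediate-early genes.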
